A study of Saccharomyces cerevisiae with 12 samples.

Results

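The 8 yeast genes described here encode the dedicated regulators of histone gene transcription: the 4 subunits of the HIR complex (HIR1, HIR2, HIR3 and HPC2), the histone chaperones ASF1 and RTT106, and the activators SPT10 and SPT21. They were chosen by name for these roles, and are 8 of the 7127 features in the count tables, of which 6047 carry a RefSeq locus tag. When the H3 gene of the shut-off strain was turned off by glucose, transcripts of all 4 HIR subunits and of both activators rose between 1.69-fold and 2.79-fold, while those of the 2 chaperones did not pass the test. Of all 6354 genes tested 21.4% were called higher in that comparison. None of the 6 was called without 1 library (H3i YPGal replicate 3), nor in the fit of all 12 libraries. In wild type the same change of medium moved none of the 8 past the test, and 0.771% of all genes. The direct test of the response of the shut-off strain minus that of wild type called only HIR3 (edgeR quasi-likelihood test, adjusted p = 0.0276). Over all genes 13.1% were called higher there. The HIR3 call depended on which libraries were used and was not made with all 12. Between the media of the shut-off strain, long genes were more often higher than short ones. The 6 regulators that rose are longer than the 2 that did not, as described below.

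Poly(A) RNA of Saccharomyces cerevisiae was sequenced in 4 groups, each with 3 biological replicates. Wild type (WT) carries both histone H3 genes, HHT1 and HHT2. H3i, the strain DGS200.1, lacks HHT1 and has HHT2 under the GAL1 promoter, which is on in galactose and shut in glucose. It was made from the strain spelled YEF473A in the growth protocol and YEF4734A among the sample traits, and the labels do not say whether other isolates were used. Each strain was sampled in galactose medium (YPGal) and after a switch to glucose medium (YPD), so that the 4 groups are WT YPGal, WT YPD, H3i YPGal and H3i YPD. The labels give no time in YPD. H3 protein was not measured.

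Yeast packs its histone genes in divergent pairs that share a promoter, and transcribes them in a burst around the start of S phase. Outside that window the HIR complex, with Asf1 and Rtt106, holds 3 of the 4 pairs down (HTA1-HTB1, HHT1-HHF1 and HHT2-HHF2), and it responds to unused histones. Spt10 binds directly to elements in all histone promoters and, with its cell-cycle regulated partner Spt21, switches them on.

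The elements that match the Spt10 consensus in the histone promoters are shown first, because they are what the activator reads. The consensus was searched as TTCC and TTCNC with 6 bases of any kind between them, on both strands, within 500 bases before each start codon. It was present before all 8 histone genes, against 2.9% of 6002 RefSeq genes, and among the regulators before HPC2 only, 339 bases before the start codon. Such elements in the histone promoters were known beforehand, so their presence there is a description and not a result. The genes of a divergent pair also share their sites, so the 8 are not separate finds. In these 30-base stretches (RefSeq R64) the match is in capitals. The HHT1-HHF1 site lies at chrII:255936-255965 (minus strand), the HHT2-HHF2 site at chrXIV:576338-576367 (minus strand), the HTA1-HTB1 sites at chrIV:915107-915136 (plus strand) and chrIV:915129-915158 (minus strand), and the HTA2-HTB2 site at chrII:236100-236129 (minus strand).
HHT1-HHF1: aaaactgTTCCGAGCGCTTCTCcccataat
HHT2-HHF2: ttgtccgTTCCGAGCACTTCGCattaagcg
HTA1-HTB1, first: agcgctgTTCCAAAATTTTCGCctcactgt
HTA1-HTB1, second: cactccaTTCCAATAGCTTCGCacagtgag
HTA2-HTB2: taaggtgTTCCCATTATTTCTCaaagtgat
The HHT2-HHF2 element is in the native intergenic region of the reference. The native HHT2 promoter was replaced in H3i, and whether this stretch is still there was not analysed here.

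The regulators' own upstream regions were searched for a pair of late G1 motifs, because SPT21 and several histone factors are cell-cycle genes. These are the MluI cell cycle box (MCB, searched as ACGCGT), which MBF binds, and the Swi4 cell cycle box (SCB, searched as CGCGAAA), which SBF binds, each on both strands of the 300 bases before the start codon. An MCB was found before ASF1, RTT106 and SPT21, against 3.48% of 6002 genes, and an SCB before HIR2 and HIR3, against 3.95%. HIR1, HPC2 and SPT10 held neither in this window, and no regulator held both. The stretches below, of equal length and at equal distance from the start codon, are in the direction of the gene, with the motif in capitals. They lie at chrXV:405509-405628 (HIR2, minus strand), chrX:695817-695936 (HIR3, minus strand), chrX:196047-196166 (ASF1, plus strand), chrXIV:258276-258395 (RTT106, minus strand) and chrXIII:619618-619737 (SPT21, plus strand). The HIR3 stretch includes 31 coding bases of its neighbour and the RTT106 stretch 21.
HIR2: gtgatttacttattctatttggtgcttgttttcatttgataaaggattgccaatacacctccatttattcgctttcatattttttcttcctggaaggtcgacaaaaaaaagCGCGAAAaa
HIR3: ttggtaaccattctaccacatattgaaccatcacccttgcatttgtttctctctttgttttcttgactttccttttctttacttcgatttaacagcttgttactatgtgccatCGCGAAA
ASF1: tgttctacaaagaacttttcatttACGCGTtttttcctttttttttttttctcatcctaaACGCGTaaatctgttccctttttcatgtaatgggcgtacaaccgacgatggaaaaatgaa
RTT106: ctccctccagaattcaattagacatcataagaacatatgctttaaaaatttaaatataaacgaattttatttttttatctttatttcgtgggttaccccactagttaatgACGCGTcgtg
SPT21: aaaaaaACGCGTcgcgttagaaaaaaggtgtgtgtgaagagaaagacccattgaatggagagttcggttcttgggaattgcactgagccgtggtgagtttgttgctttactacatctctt
ASF1 held 2 MCB copies, starting 216 and 180 bases before the start codon. The copy of RTT106 started at 130 and that of SPT21 at 234, and the SCB of HIR2 started at 129 and that of HIR3 at 127. A match is a description of letters, not evidence that a factor binds there.

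**Figure D1:**
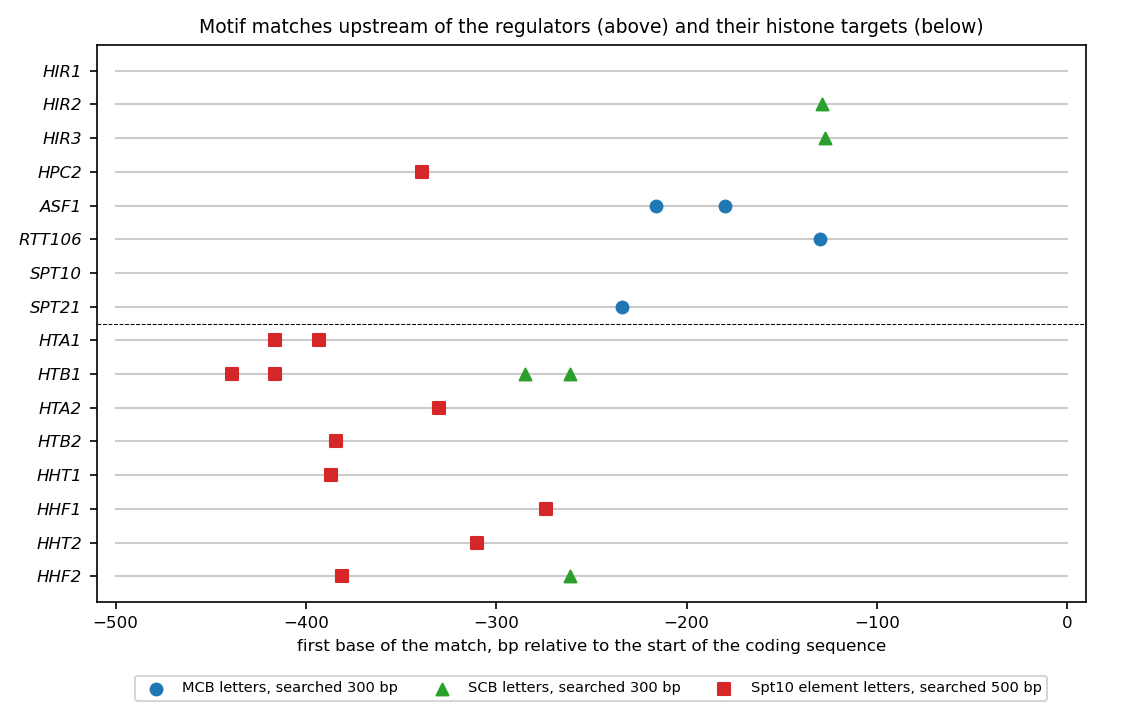
Positions of the searched motifs before the start codons of the 8 regulators (above the dashed line) and the 8 histone genes (below), in bp relative to the start codon, with MCB and SCB searched over 300 bases and the Spt10 element over 500 bases. Among the regulators MCB copies lie before ASF1, RTT106 and SPT21, SCB copies before HIR2 and HIR3 and 1 Spt10 element before HPC2, while all 8 histone genes have an Spt10 element and HTB1 and HHF2 also an SCB.

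Levels are given in CPM, the counts of a gene per 1e6 counts on all genes of its library. A library of replicate 1 held 2176277 to 2525223 gene counts, one of replicate 3 held 8649749 to 11628815, and one of replicate 2 held 40950610 to 52278567. Replicate 2 was the deepest but lacked many genes. Of genes that reached 50 CPM in replicates 1 and 3, the share below 0.1 of that level was 46.0% (WT) and 47.3% (H3i) with galactose, and 42.4% (WT) and 22.0% (H3i) with glucose. Tests were therefore run on the 8 libraries of replicates 1 and 3, and the values from all 12 stand beside them. Replicate 3 was extracted and prepared with other kits, and its 2 WT libraries stood apart by their auxotrophic markers and pheromone genes. Reads of HIS3 were found in them (22.7 and 21.9 CPM) and in no other library, the alpha pheromone gene MF(ALPHA)1 stood at 2464 and 2325 CPM, and the a pheromone gene MFA1 at 1.97 and 1.30 CPM. TRP1 was also read in these 2 libraries only (95.0 and 84.1 CPM). The alpha-cell gene STE3 stood there at 354 and 601 CPM and the a-cell gene STE2 at 16.5 and 14.6 CPM, the pattern of alpha cells. In WT replicate 1 STE2 stood at 255 and 900 CPM and STE3 at 9.50 and 2.59 CPM, the pattern of a cells. LEU2, URA3 and LYS2 had 0 counts in the 2 WT libraries of replicate 3 and counts in the other 10. The H3i libraries of replicate 3, made with the same kits, had 0 counts of HIS3 and TRP1. The tested WT libraries of each medium thus differ in marker genes and mating type. Only 1 of the 2 has the levels of replicate 3. Within WT, what goes with these markers in the regulators' levels cannot be told apart from the replicate number. The comparisons with WT are also given below without both of these libraries. As the check of the strain, HHT2 went in H3i from 3694, 4353 and 2284 CPM with galactose to 14.7, 21.5 and 30.3 CPM with glucose, and the deleted HHT1 was at most 3.34 CPM in the 6 H3i libraries.

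All 8 regulators were lowly to moderately expressed and passed the filter on low counts. Over the 8 libraries of replicates 1 and 3 their mean levels ran from 47.8 CPM for SPT10 to 161 CPM for RTT106, and the thinnest value rested on 66 counts. None overlaps another gene of the RefSeq annotation. Ordered per length (CPM per kb, mean of replicates 1 and 3), the chaperones stood highest in every group. In WT YPGal ASF1 stood at 111 and RTT106 at 91.8 CPM per kb, and their ranges over the replicates overlapped. They were followed without overlap by HPC2 at 35.2, then by SPT21 at 30.9, HIR2 at 27.8, HIR1 at 20.2 and SPT10 at 16.1, each overlapping the next. HIR3 was lowest at 12.5 CPM per kb and did not overlap SPT10. In H3i YPD the order was RTT106 at 169, ASF1 at 131, HPC2 at 90.6, HIR1 at 70.3, HIR2 at 62.6, SPT21 at 58.4, SPT10 at 50.7 and HIR3 at 35.9 CPM per kb. The HIR subunits therefore did not stand at equal transcript levels, and HIR3 was the lowest of them in all 4 groups.

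**Figure D2:**
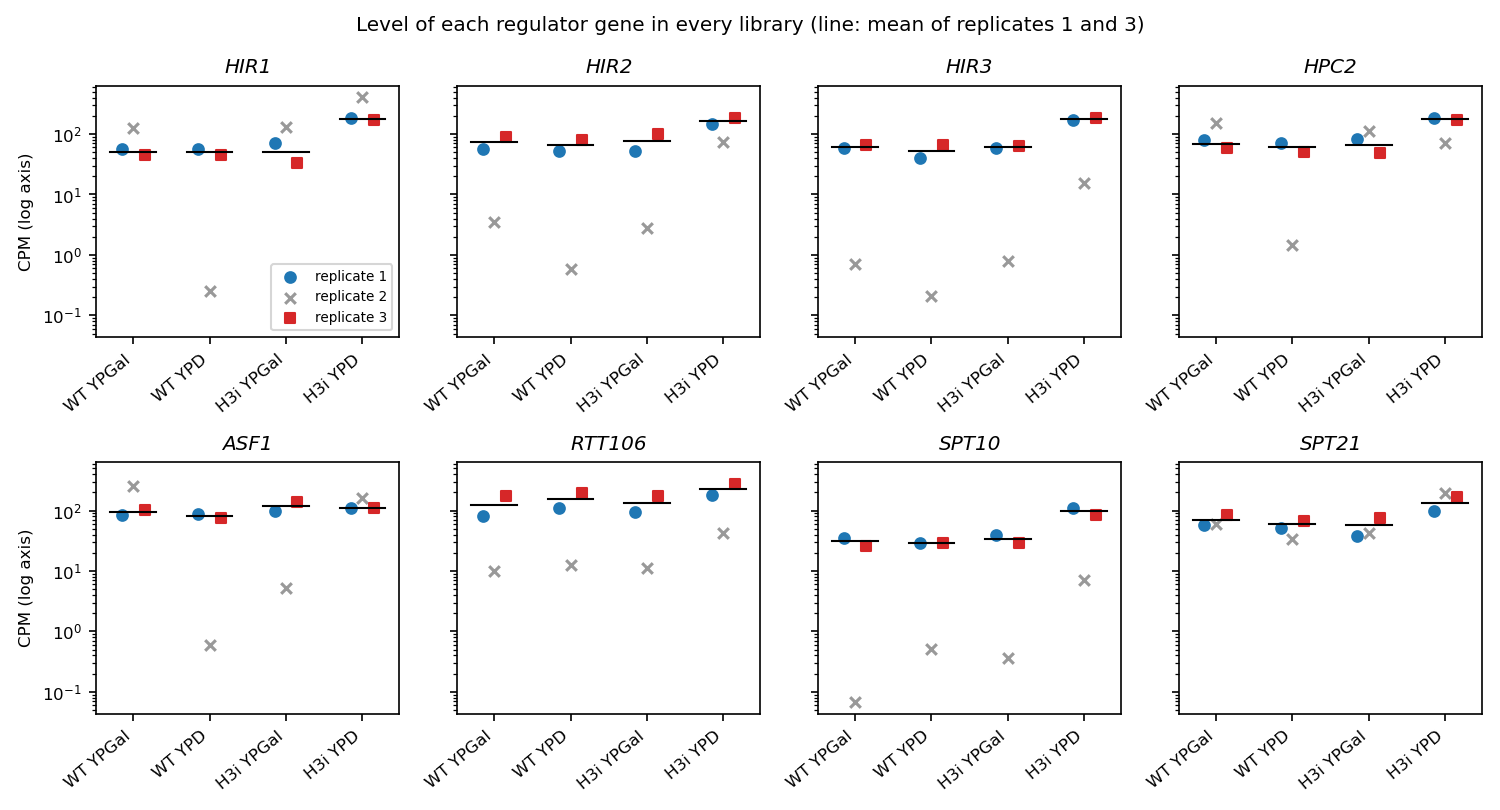
CPM of each regulator in the 12 libraries (log axis), by group and replicate, with the mean of replicates 1 and 3 as a line. In replicates 1 and 3 the H3i YPD points of HIR1, HIR2, HIR3, HPC2, SPT10 and SPT21 lie above all points of the other 3 groups, while replicate 2 falls below 1 CPM for several genes.

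The central question was how the regulators respond when the remaining H3 gene is shut off, which H3i YPD against H3i YPGal addresses. Of the 8, 6 rose and 0 fell (edgeR quasi-likelihood test, Benjamini-Hochberg adjusted p under 0.05 over 6354 genes, n = 2 per group). In the same comparison 21.4% of all genes tested were called higher and 22.2% lower. Of the 2929 genes whose mean level lay within the regulators' own range of 47.8 to 161 CPM, 21.7% were called higher. The median log2 fold change was 0.97 over the 8 and 0.027 over all genes. Of all calls 49.2% were higher, and 69.7% with library totals in place of TMM scaling, which moved the median of all genes by 0.39 on the log2 scale. Without H3i YPGal replicate 3 none of the 6 was called, and their adjusted p-values, like those of the other 2, ran from 0.0779 to 0.523, with fold changes up to 0.98 on the log2 scale. Without H3i YPGal replicate 1, HIR1, HIR3 and HPC2 remained, and the same 3 without H3i YPD replicate 1. Without H3i YPD replicate 3, HIR1, HIR2, HIR3 and SPT10 remained. In the fit of all 12 libraries none was called, with log2 fold changes from 0.31 to 1.38 and adjusted p-values from 0.707 to 0.996.

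Hir1, a WD-repeat subunit of the HIR complex, had the largest change. HIR1 (YBL008W, R64 chrII:209653-212175, plus strand) stood at 70.1, 132 and 32.6 CPM in H3i YPGal, in the order of replicates 1, 2 and 3 used throughout, and at 184, 403 and 171 CPM in H3i YPD. In WT it stood at 57.0, 127 and 44.9 CPM in YPGal and at 55.8, 0.249 and 45.4 CPM in YPD. The 3 H3i YPD libraries were the highest of all 12, and did not overlap any other group. Between the media in H3i it rose by 1.48 ± 0.30 on the log2 scale (SE, adjusted p = 0.00713), or 2.79-fold.

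Hir2 is the subunit most like Hir1, with which it forms the core of the complex. HIR2 (YOR038C, chrXV:402761-405388, minus strand) stood at 53.0, 2.74 and 101 CPM in H3i YPGal and at 145, 72.7 and 184 CPM in H3i YPD. The WT libraries read 55.8, 3.47 and 90.4 CPM in YPGal and 52.3, 0.574 and 80.3 CPM in YPD. Within each replicate H3i YPD was the highest, but over the 3 replicates the groups overlapped, because H3i YPD replicate 2 lay below H3i YPGal replicate 3. HIR2 had the smallest called change, 0.75 ± 0.22 on the log2 scale (adjusted p = 0.0259). Its call was lost without either H3i YPGal library (adjusted p = 0.207 without replicate 1 and 0.104 without replicate 3) and without H3i YPD replicate 1 (adjusted p = 0.184).

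Hir3, the largest subunit, showed the most even response in the 2 tested replicates. HIR3 (YJR140C, chrX:690750-695696, minus strand) stood at 58.4, 0.803 and 62.8 CPM in H3i YPGal and at 169, 15.7 and 187 CPM in H3i YPD. In WT it was read at 57.8, 0.716 and 65.9 CPM in YPGal and at 40.2, 0.210 and 66.1 CPM in YPD. Replicate 2 held only 0.396% to 8.81% of the level in the other replicates, depending on the group, yet H3i YPD was the highest group there too. It rose by 1.15 ± 0.23 (log2, adjusted p = 0.00628), and the log2 ratio of CPM was 1.53 in replicate 1 and 1.57 in replicate 3.

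Hpc2 completes the complex and helps it engage H3. HPC2 (YBR215W, chrII:653356-655317, plus strand) stood at 83.9, 110 and 49.0 CPM in H3i YPGal and at 182, 70.9 and 173 CPM in H3i YPD. In WT it stood at 78.8, 151 and 59.3 CPM in YPGal and at 71.4, 1.45 and 50.01 CPM in YPD. It was the only regulator whose replicate 2 went the other way between the media of H3i, with a log2 ratio of −0.64. Over replicates 1 and 3 it rose by 1.09 ± 0.26 (log2, adjusted p = 0.0119).

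Of the chaperones, Asf1 carries new H3-H4 and hands it to HIR, to the replication-coupled assembly factors and to the H3 acetyltransferase Rtt109. ASF1 (YJL115W, chrX:196287-197126, plus strand) stood at 98.1, 5.18 and 138 CPM in H3i YPGal and at 111, 162 and 109 CPM in H3i YPD. In WT it stood at 84.7, 251 and 101 CPM in YPGal and at 87.4, 0.593 and 74.7 CPM in YPD. The groups overlapped, and replicates 1 and 3 went opposite ways. The log2 fold change between the media in H3i was −0.49 ± 0.24 (adjusted p = 0.138), with a 95% interval of −1.06 to 0.072, which does not reach the estimates of the 6 regulators that rose. With library totals in place of TMM scaling it was −0.098 (adjusted p = 0.750). CPM is set on gene totals, whereas the fit also applies TMM factors, which were 1.19 and 1.38 in H3i YPD and 0.863 and 1.10 in H3i YPGal (replicates 1 and 3).

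Rtt106, the other H3-H4 chaperone, is brought to histone promoters through HIR and Asf1. RTT106 (YNL206C, chrXIV:256788-258155, minus strand) stood at 96.0, 11.3 and 175 CPM in H3i YPGal and at 182, 43.0 and 280 CPM in H3i YPD. In WT it stood at 80.4, 10.04 and 171 CPM in YPGal and at 109, 12.5 and 196 CPM in YPD. H3i YPD was the highest within each replicate number, and replicate 3 exceeded replicate 1 in all 4 groups. The log2 fold change was 0.40 ± 0.21 (adjusted p = 0.157, 95% interval −0.085 to 0.89). The interval takes in 0 and also the estimates of HIR2 and SPT21, so RTT106 was not set apart from them. With library totals in place of TMM scaling it was called (0.80, adjusted p = 0.0157).

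Of the activators, Spt10 resembles an acetyltransferase and binds the promoter elements shown above. SPT10 (YJL127C, chrX:182298-184220, minus strand) stood at 40.1, 0.357 and 28.6 CPM in H3i YPGal and at 112, 7.11 and 83.2 CPM in H3i YPD. In WT it stood at 35.6, 0.0671 and 26.2 CPM in YPGal and at 28.5, 0.516 and 28.5 CPM in YPD. It was the lowest of the 8 by CPM, and in replicates 1 and 3 its H3i YPD libraries exceeded all others. It rose by 1.11 ± 0.28 (log2, adjusted p = 0.0143).

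Spt21 works with Spt10 and is itself made in S phase. SPT21 (YMR179W, chrXIII:619858-622134, plus strand) stood at 38.4, 42.1 and 75.0 CPM in H3i YPGal and at 97.0, 192 and 169 CPM in H3i YPD. In WT it stood at 57.0, 59.8 and 83.5 CPM in YPGal and at 51.5, 33.7 and 66.6 CPM in YPD. It was the regulator least affected by the loss in replicate 2, which held 57.1% to 145% of the level in the other replicates, and its 3 H3i YPD libraries exceeded all 9 others. It rose by 0.85 ± 0.25 (log2, adjusted p = 0.0252), and this call was lost when any 1 of the 4 H3i libraries was left out (adjusted p from 0.0587 to 0.182).

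In CPM, H3i YPD lay above H3i YPGal without overlap for 7 of the 8 in replicates 1 and 3, which was also so for 44.4% of the genes tested. With replicate 2 included it was so for 2 of the 8, HIR1 and SPT21, and for 20.9% of the genes tested. Replicate 2 alone, which entered no test, was higher in H3i YPD for 7 of the 8, and H3i YPD was also the group with the smallest loss of genes in that replicate. What that unequal loss contributes to the replicate 2 values was not tested.

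A ratio within a library does not depend on how libraries are scaled. ASF1 amounted to 36.9%, 2.11% and 56.4% of the summed CPM of the 4 HIR subunits in H3i YPGal (replicates 1, 2 and 3). In H3i YPD it amounted to 16.3%, 28.8% and 15.3%. The WT libraries read 33.97%, 88.9% and 38.7% in YPGal and 39.8%, 23.8% and 30.9% in YPD. In replicates 1 and 3 the H3i YPD value was thus below the other 6 libraries, which lay between 30.9% and 56.4%, while replicate 2 showed no such order. ASF1 (840 bp) is shorter than the HIR genes (1962 to 4947 bp), and changes moved with gene length, as described next. The part of length in this ratio was not tested.

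Gene length moved with the response to H3 shut-off. Among the 2924 genes in the regulators' level range that have a RefSeq length, 6.17% of the 940 genes under 1000 bp were called higher in H3i YPD than in H3i YPGal and 43.1% lower. Of the 703 genes from 1000 to 1500 bp 14.2% were called higher, of the 810 from 1500 to 2500 bp 28.3%, and of the 471 at 2500 bp or more 52.9%. The median log2 fold change rose with these classes from −0.65 through −0.020 and 0.34 to 0.80. ASF1 (840 bp) is in the shortest class and RTT106 (1368 bp) in the next, SPT10 (1923 bp), HPC2 (1962 bp) and SPT21 (2277 bp) are in the third, and HIR1 (2523 bp), HIR2 (2628 bp) and HIR3 (4947 bp) are in the longest. Within its own class HPC2 exceeded 81.7% of genes, SPT10 83.1% and HIR1 80.5%, SPT21 exceeded 73.0% and HIR3 67.1%. HIR2 exceeded 48.0% of its class and so lay near the middle of it, and among the regulators not called RTT106 exceeded 71.4% and ASF1 57.4%. The classes were set after the values were seen, and the part of length in the regulators' changes was not tested.

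**Figure D3:**
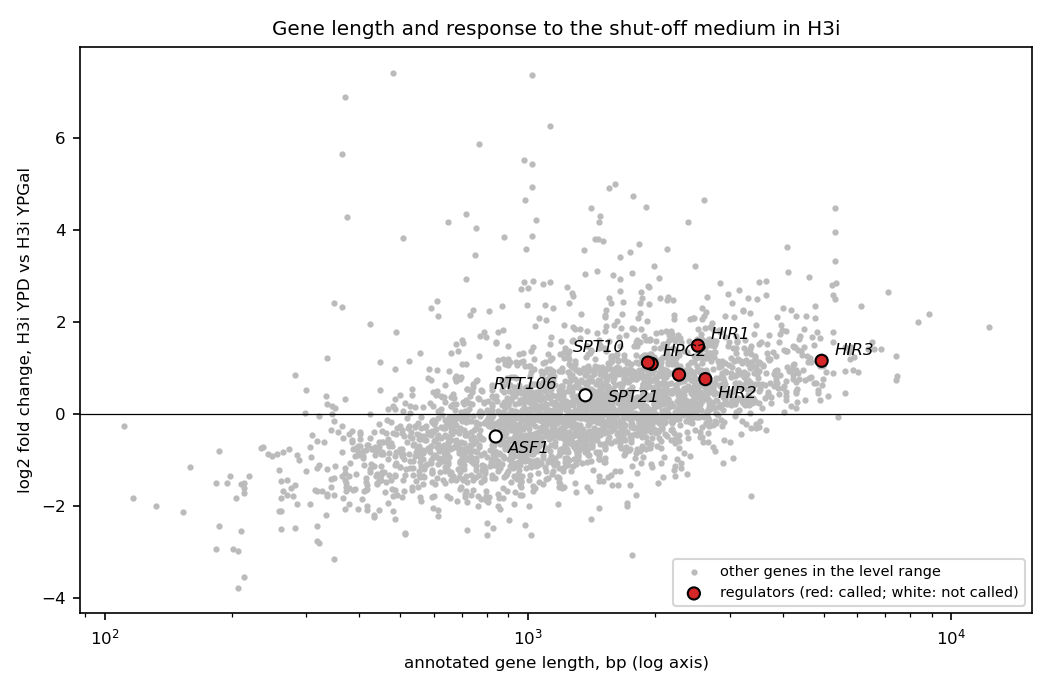
Log2 fold change of H3i YPD against H3i YPGal (8 libraries) against annotated gene length in bp (log axis), for genes in the regulators' level range (grey) and the 8 regulators (red where called, white where not). The cloud rises with length, from a median of −0.65 under 1000 bp to 0.80 at 2500 bp or more, and the regulators lie along its middle and upper part.

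Against WT in the same glucose medium, H3i was higher for 5 of the 8 regulators, all 4 HIR subunits and SPT10, and lower for none. Of all genes tested 26% were called higher, and 27.7% of those in the regulators' level range. HIR1 differed by 1.23 ± 0.30 on the log2 scale (adjusted p = 0.0117). HIR3 differed by 1.15 ± 0.23 (adjusted p = 0.00489) and was called in each of the 8 fits that left out 1 library. SPT10 differed by 1.14 ± 0.28 (adjusted p = 0.0115). HPC2 differed by 0.99 ± 0.26 (adjusted p = 0.0149) and HIR2 by 0.73 ± 0.22 (adjusted p = 0.0262). SPT21 had a difference of 0.52 ± 0.25 (adjusted p = 0.109), and RTT106 of 0.017 ± 0.21 (adjusted p = 0.951, 95% interval −0.47 to 0.50). For ASF1 it was −0.17 ± 0.25 (adjusted p = 0.580), and 0.44 with library totals. With that scaling SPT21 and RTT106 were called too, and 77.3% of all calls were higher, against 52.3% with TMM. In CPM of replicates 1 and 3, H3i YPD lay above WT YPD without overlap for 7 of the 8, all but RTT106. Of the genes tested 52.5% lay above in this way and 15.3% below. The 7 include ASF1, whose fitted change was −0.17. The classes of length differed here too, with 10.7% of genes under 1000 bp and 55.2% of those at 2500 bp or more called higher.

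This comparison rests on the WT YPD libraries, of which replicate 3 carried the other marker genes. Without WT YPD replicate 3, HIR3 and SPT10 remained, and without both WT libraries of replicate 3, HIR1, HIR3 and SPT10 remained. Without WT YPD replicate 1 only HIR3 remained (adjusted p = 0.0497). Without H3i YPD replicate 1, HIR1, HIR3 and HPC2 remained, and without H3i YPD replicate 3, HIR2, HIR3 and SPT10. Without H3i YPGal replicate 3 HIR2 was lost (adjusted p = 0.0575). With all 12 libraries none was called (adjusted p from 0.568 to 0.978).

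**Figure D4:**
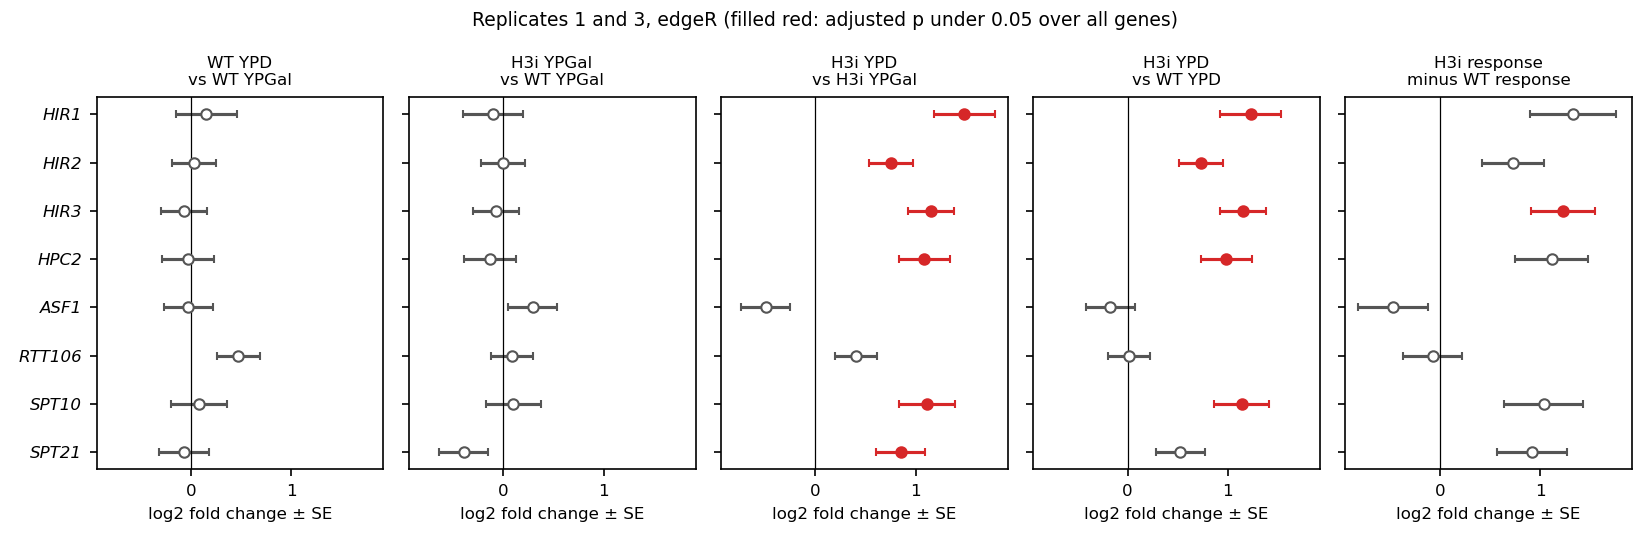
Log2 fold change of each regulator (points) ± SE (bars) in the 5 comparisons of the 8 libraries, filled red where the adjusted p was under 0.05. In H3i YPD against H3i YPGal 6 of the 8 lie above 0 and are called, in H3i YPD against WT YPD 5, and in WT YPD against WT YPGal none.

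The change of carbon source itself was read in WT. None of the 8 was called between WT YPD and WT YPGal, and over all genes 0.771% were called in either direction. The log2 fold changes ran from −0.074 for HIR3 to 0.47 for RTT106, with adjusted p-values from 0.262 to 0.969. RTT106 came nearest, at 0.47 ± 0.21. The 95% interval of HIR1, −0.54 to 0.85, and that of HIR3, −0.60 to 0.45, did not reach the changes measured for them in H3i. These intervals leave out the error of the H3i values. The direct test of a difference is the interaction given below, which did not call HIR1. In CPM of replicates 1 and 3 the groups overlapped for all 8. Of the genes tested, 9.21% were higher in WT YPD without overlap and 23.9% lower.

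With the H3 gene on, H3i and WT were compared in YPGal. HHT2 itself stood at 3694, 4353 and 2284 CPM in H3i and at 911, 1300 and 936 CPM in WT. Its log2 fold change was 1.67 ± 0.44 and was not called. WT also carries HHT1, at 881, 1329 and 689 CPM. None of the 8 was called, but neither was any gene (0% of 6354). At an unadjusted p under 0.05 edgeR had 114 genes, and DESeq2 called 13 after adjustment. The deleted gene itself, HHT1, with a log2 fold change of −9.67 ± 0.98, reached only an adjusted p of 0.0603, so that changes of the size seen in glucose were not detectable here. The log2 fold changes ran from −0.39 for SPT21 to 0.29 for ASF1. The SPT21 value had a 95% interval of −0.96 to 0.18.

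Whether the media acted differently in the strains was tested by the interaction, the response of H3i minus that of WT. HIR3 was the 1 regulator called, at 1.23 ± 0.32 on the log2 scale (adjusted p = 0.0276). Over all genes 13.1% were called higher, and 15.6% of those in the regulators' level range. Within that range the share was 5.74% under 1000 bp and 38.6% at 2500 bp or more, the class of HIR1, HIR2 and HIR3. HIR1 (1.33 ± 0.43, adjusted p = 0.0512) and HPC2 (1.12 ± 0.36, adjusted p = 0.0534) had estimates as large or nearly so. SPT10 stood at 1.04 ± 0.39 and SPT21 at 0.92 ± 0.35 (adjusted p = 0.0838 for both), and HIR2 at 0.73 ± 0.31 (adjusted p = 0.116). ASF1 at −0.47 ± 0.35 and RTT106 at −0.070 ± 0.30 lay below 0, but not with library totals, where they stood at 0.095 and 0.49. With that scaling 6 of the 8 were called, and 76.2% of all calls were higher, against 47.6% with TMM. Without both WT libraries of replicate 3 HIR3 was called (adjusted p = 0.0275). The HIR3 call was kept in 1 of the 8 fits that left out a library, that without WT YPD replicate 3 (adjusted p = 0.0422), and in the other 7 its adjusted p lay between 0.0547 and 0.139. Without either H3i replicate 1 library a single other regulator was called, HIR1 without that of YPGal (adjusted p = 0.0480) and HPC2 without that of YPD (adjusted p = 0.0489). With all 12 libraries none was called.

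Next come the genes that the regulators act on. Of the 6 histone genes that HIR controls from their native promoters, 2 fell between H3i YPGal and H3i YPD and none rose. Both that fell are at the altered HHT2-HHF2 locus. The list median of −0.88 takes in HHT2, driven by GAL1 in H3i, and the deleted HHT1 at −5.46 ± 2.08 (not called). Over all genes 22.2% were called lower, and 43.1% of those under 1000 bp in the regulators' level range. HTA1, HTB1 and HHF1 lay above that range in every tested library, so the latter share is not matched to their level. HHT2 fell by 7.42 ± 0.57 on the log2 scale (adjusted p = 0.000762), and this call alone in the list was also made with all 12 libraries. HHF2, the H4 gene that faces HHT2 across the replaced promoter, fell by 1.497 ± 0.34 (adjusted p = 0.0102). It stood at 63.9, 5.13 and 125 CPM in H3i YPGal and at 28.5, 8.74 and 58.9 CPM in H3i YPD, so that replicate 2, which is not in the test, was higher with glucose. In WT YPGal it stood at 809, 1306 and 774 CPM. HTA1 had a log2 fold change of −0.030 ± 0.29 (adjusted p = 0.940), HTB1 of −0.067 ± 0.30 (adjusted p = 0.872) and HHF1 of −0.27 ± 0.27 (adjusted p = 0.455). With library totals these 3 values turned to 0.37, 0.34 and 0.13 and were not called either. HTA1 stood at 809, 1281 and 723 CPM in H3i YPGal and at 1062, 1199 and 922 CPM in H3i YPD, groups that overlapped. Of the HTA2-HTB2 pair, which HIR does not control, HTB2 fell by 1.24 ± 0.28 (adjusted p = 0.0101). The HHF2 and HTB2 calls were lost in at least 1 fit that left out a library, with adjusted p-values up to 0.0914 and 0.0835.

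Of 17 other factors of histone gene transcription 2 rose and 3 fell in the same comparison, where 21.4% of all genes were called higher and 22.2% lower, with a median of 0.20. The SWI/SNF subunits SNF5, at 1.61 ± 0.25 (adjusted p = 0.00292), and SWI1, at 0.84 ± 0.26 (adjusted p = 0.0320), rose. SWI6, the subunit that SBF and MBF share, fell by 0.92 ± 0.24 (adjusted p = 0.0181). STH1, the motor of the RSC remodeller, fell by 0.82 ± 0.22 (adjusted p = 0.0204), and GCN5, the SAGA acetyltransferase, by 0.78 ± 0.22 (adjusted p = 0.0220). With library totals the counts were 9 higher and 0 lower. The SNF5 call was kept in every fit that left out 1 library. The other 4 were lost in at least 1 of them, with adjusted p-values up to 0.101 for SWI6, 0.113 for STH1, 0.172 for GCN5 and 0.196 for SWI1. Among 15 genes of histone supply 9 rose and 1 fell, with a median of 0.76. The part of gene length in the counts of this list, of the 17 factors and of the late G1 genes below was not tested. RAD53, the checkpoint kinase that also directs the breakdown of excess histones, rose by 2.08 ± 0.36 (adjusted p = 0.00404), from 42.2, 52.3 and 22.0 CPM to 150, 285 and 183 CPM without overlap. TOM1, a ubiquitin ligase for excess histones, rose by 1.47 ± 0.24 (adjusted p = 0.00331), and RTT101, a cullin that acts on H3 acetylated with the help of Asf1, by 1.33 ± 0.31 (adjusted p = 0.0107). NAP1, a chaperone of H2A-H2B, fell by 1.31 ± 0.28 (adjusted p = 0.00791). RAD53 and TOM1 were called in every fit that left out 1 library, whereas the adjusted p of RTT101 reached 0.0953 and that of NAP1 0.0619. In replicate 2, not tested, RTT101 was lower in H3i YPD (21.4 CPM) than in H3i YPGal (29.8 CPM). With all 12 libraries no gene of these lists was called.

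Of 15 late G1 genes, which carry the targets of SBF and MBF, 4 rose and 4 fell, with a median of 0.061, and with library totals 7 rose and 2 fell. Over all genes the shares were 21.4% higher and 22.2% lower, and with all 12 libraries none of the 15 was called. CLN1 and CLN2, the G1 cyclins, fell by 2.24 ± 0.29 (adjusted p = 0.00215) and by 1.54 ± 0.26 (adjusted p = 0.00372). CLN1 also had a log2 fold change of −1.11 ± 0.28 in WT (adjusted p = 0.122), and its interaction was −1.13 ± 0.40 (adjusted p = 0.0705). POL2 and POL1, which encode catalytic subunits of replicative DNA polymerases, rose by 1.82 ± 0.26 (adjusted p = 0.00257) and by 1.68 ± 0.30 (adjusted p = 0.00460). The calls of CLN1, CLN2 and POL2 were kept in every fit that left out 1 library, and that of POL1 was lost in at least 1 (adjusted p up to 0.0577). In replicate 2, not tested, POL1 went from 243 CPM in H3i YPGal to 7.47 CPM in H3i YPD. Over all genes tested with an upstream window, 30% of the 207 with an MCB were called higher in H3i YPD than in H3i YPGal and 11.6% lower, against 20.4% and 24.2% of the 5637 without one. Of the regulators with an MCB, SPT21 was called and ASF1 and RTT106 were not. For the SCB, 21.7% of 235 genes were called higher and 20.4% lower. These shares were worked out after the values were seen and are given without a test.

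The regulators did not vary alike between the replicate numbers, which differ in kits. HIR2, HIR3, RTT106 and SPT21 were higher in replicate 3 than in replicate 1 in all 4 groups, by 0.10 to 1.09 on the log2 CPM scale. HIR1, HPC2 and SPT10 were lower in replicate 3 in all 4 groups, although for SPT10 in WT YPD the difference was only −0.0013. The largest difference among these was that of HIR1 in H3i YPGal, −1.11, from 70.1 to 32.6 CPM. The log2 ratio of HIR1 CPM between the media of H3i was 1.39 in replicate 1 and 2.39 in replicate 3.

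Likeness of pattern was measured as the root mean square difference of centred log2 CPM over the 8 libraries, among 5517 genes at 10 CPM or more on average. Nearest to HIR1 were MSH3 (0.16) and SSN2 (0.19), nearest to HIR2 were COG6 (0.088) and SNU71 (0.11), and nearest to HIR3 were KRE5 (0.12) and YDR338C (0.13). HPC2 was nearest to MRC1 (0.10) and ZDS2 (0.11), ASF1 to SHP1 (0.12) and IES1 (0.12), and RTT106 to RTP1 (0.090) and TRS85 (0.095). SPT10 was nearest to YNL095C (0.11) and BUL1 (0.12), and SPT21 to SQS1 (0.12) and LCL3 (0.13). Among the regulators HPC2 ranked 5th of all genes by likeness to HIR1 and SPT10 13th, and HIR2 ranked 24th by likeness to SPT21. HIR2 lay at 0.68 from HIR1 and ASF1 at 0.85, both under the median of all genes compared with HIR1, 0.956. All these points share 4 groups and 2 replicate numbers, so that differences between kits enter this measure.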

How the data were processed

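Poly(A) RNA-seq of 12 libraries was analysed from the read counts per gene that the authors deposited. The tools in the submitters' processing notes are HISAT2, SAMtools, FastQC, Picard and DESeq2, without versions, and the build is sacCer3. The sources used here do not state how reads were counted or with which strand setting. Entries that name no gene were left out. Their share of a library was 27.5% to 38.6% for replicate 1, 66.3% to 74.5% for replicate 2 and 22.0% to 33.7% for replicate 3. Per the labels' protocols, replicates 1 and 2 were extracted with MagMax and prepared with TruSeq Stranded mRNA, and replicate 3 with Trizol and glass beads and TruSeq Stranded mRNA LT.

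Counts of replicates 1 and 3 were fitted across all genes with edgeR 4.0.16 in R 4.3.3 (quasi-likelihood, TMM, filterByExpr, 6354 genes) with 4 groups and a kit term, which is the same as a replicate block there (3 residual degrees of freedom, common biological coefficient of variation 0.273). In all 12 libraries 6408 genes were tested, with a coefficient of 1.13. P-values were adjusted by Benjamini-Hochberg over all genes, and 0.05 was the threshold. WT and H3i comparisons share groups, so their results are not independent of each other. Same-numbered libraries correlated in their deviations from group means (18 pairs, r = 0.331 to 0.805), so the replicate number pairs them. The labels call the replicates biological but name no cultures. Alternatives were no replicate block, a block for each strain, library totals, RLE factors, no filter, DESeq2 1.42.0, and leaving out libraries. The procedure was tested on simulated data.

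The members, the 5 gene lists, the test and the alternatives were chosen with earlier results of these data known. All 8 members are named, from each list up to 4 called genes with the largest change, and for each member the 2 genes with the most similar pattern. GCN5 was named after its values were seen, and length classes and motif shares were added after the values were seen. Locus tags were matched to RefSeq R64, the assembly known as sacCer3, from which coordinates and sequences were read. Levels near 0 in replicate 2 are given as read, and counting error is covered only through the model. The sequences of the proteins were not used here.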

Additional observations from a re-analysis of the deposited data

Results flagged for a closer look

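HIR3 was higher in H3i YPD than in H3i YPGal in both tested replicates, with no called change in WT. The interaction call, H3i response minus WT response, stood at 1.23 ± 0.32 on the log2 scale (edgeR interaction term, adjusted p = 0.0276). It was lost in 7 of the 8 fits that left out 1 library. In the same term 13.1% of all genes were called higher. Of the 471 genes at 2500 bp or more in the regulators' level range, 38.6% were, and HIR3 is 4947 bp long. The part of length in the HIR3 value was not tested. Replicate 2, which is not in the test, went the same way in H3i, from 0.803 to 15.7 CPM. The share of genes lost in that replicate was 47.3% in H3i YPGal and 22.0% in H3i YPD. What this unequal loss contributes to the HIR3 values of replicate 2 was not tested. No group had enough libraries for a check of single outlying values.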

How the results depend on the processing

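The number of regulators called rested on which libraries were used. Between the media of H3i it was 6, against 0 with all 12 libraries and the kit term, 0 with all 12 and a replicate block, 1 with no replicate block, and 0 to 6 when 1 library was left out. Against WT in YPD it was 5, against 0, 0 and 1 in those settings, 3 without both WT libraries of replicate 3, and 1 to 5 when 1 library was left out. For the interaction it was 1, against 0, 0 and 0, 4 with DESeq2, 6 with library totals, 2 with RLE size factors, and 0 to 1 when 1 library was left out. Within H3i and against WT in YPD, DESeq2, RLE size factors and no filter on low counts left the counts at 6 and 5, and library totals gave 7 and 7. In WT and in YPGal no regulator was called in any setting. A replicate block for each strain was run for the comparisons of the media within WT and within H3i and for the interaction, and left their counts at 0, 6 and 1. It was not run for H3i against WT. Over all genes the calls between the media of H3i were 2769, and 4 with all 12 libraries, 503 with the replicate block there, 1183 with no replicate block and 1201 to 2955 when 1 library was left out. For H3i against WT in YPD they were 3163, and 6, 716, 1579 and 1917 to 3358. For the interaction they were 1756, and 1, 208, 25 and 524 to 1591. In WT they were 49, and 4, 11, 5 and 4 to 381, with 657 by DESeq2 and 493 without both WT libraries of replicate 3. In YPGal they were 0, with 13 by DESeq2, 3 with no filter, 2 without both WT libraries of replicate 3 and 0 to 5 when 1 library was left out.

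Changes of sign concerned values that were not called. With all 12 libraries and the kit term ASF1 stood at 0.61 between the media of H3i, 0.96 against WT in YPD, −1.32 in YPGal and 2.29 for the interaction, RTT106 at 0.047 for the interaction, HIR1 at −1.08 and HIR2 at −0.00052 in WT, and HIR2 at −0.024 in YPGal. With the replicate block there ASF1 stood at 0.68, 1.05, −1.42 and 2.46, RTT106 at 0.41, HIR1 at −0.69, and HIR2 at −0.33 in WT and −0.092 in YPGal. With library totals ASF1 stood at 0.44 against WT in YPD and 0.095 for the interaction, RTT106 at 0.49, and in WT HIR1 at −0.0054, HIR2 at −0.13 and SPT10 at −0.081. In WT, HPC2 stood at 0.0036 with no replicate block, 0.013 with DESeq2 and 0.014 with RLE size factors, and ASF1 at 0.012 and 0.016 with the latter 2. HIR1 stood at 0.013 in YPGal with no replicate block, and RTT106 at −0.0062 against WT in YPD with no filter. When libraries were left out, the ranges that crossed 0 were, in WT, −0.068 to 0.15 for HIR2, −0.31 to 0.12 for HIR3, −0.15 to 0.10 for HPC2, −0.34 to 0.29 for ASF1, −0.088 to 0.22 for SPT10 and −0.34 to 0.20 for SPT21. In YPGal they were −0.59 to 0.36 for HIR1, −0.15 to 0.14 for HIR2, −0.23 to 0.11 for HIR3, −0.40 to 0.14 for HPC2, −0.11 to 0.33 for RTT106 and −0.033 to 0.26 for SPT10. For H3i against WT in YPD they were −0.46 to 0.13 for ASF1 and −0.16 to 0.10 for RTT106, and for the interaction −0.36 to 0.12 for RTT106. The cause of these changes was not tested. Depth limits replicate 1 most, whose thinnest value is 66 counts for SPT10. With 1 library left out, the lone sample of its group is assumed to vary like the other groups.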
